A study of Mus musculus with 4 samples.

Results

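The 10 genes described here are members and relatives of the AP-1 transcription factor family: the Fos genes Fos, Fosb, Fosl1 and Fosl2, the Jun genes Jun, Junb and Jund, the related leucine zipper factors Atf3 and Maff, and the zinc finger factor Egr1, which is not an AP-1 protein but is induced by the same signals. They were chosen by gene symbol in the platform annotation, and all 10 were found, on 14 probe sets out of 45037 (18193 gene symbols) on the array. Expression was measured on 4 Affymetrix arrays, 1 for each clone of mouse embryonic stem (ES) cells: Klf5 knockout (KO) clones 1 and 2 and wild-type (WT) clones 1 and 2. Both genotypes were grown in ES medium with fetal bovine serum and the cytokine LIF, which keeps mouse ES cells undifferentiated. Total RNA was the starting material for the arrays. The sources used here do not give the parental line, the deleted part of Klf5 or any feeder layer. Each array is a clone, so a p-value rests on the spread between 2 clones per genotype, combined with a variance prior from all tested probe sets. The prior weighed more (6.87 degrees of freedom, against 2 from the arrays).

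AP-1 is a dimer of a Jun protein with a Fos, Jun or related protein, held together by a leucine zipper. It binds the site TGACTCA or TGAGTCA in promoters and enhancers. Fos, Fosb, Jun, Junb, Atf3 and Egr1 are immediate-early genes, transcribed within minutes of a growth factor or stress signal through the ERK, JNK and p38 kinases, while Fosl1 and Fosl2 follow later. AP-1 is abundant in fibroblasts and other mesenchymal cells, and forced Jun expression opposes the reprogramming of fibroblasts to pluripotency.

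Promoter sequences are shown for a member that rose (Fosl2), for a pair whose KO clones read above both WT clones without passing the test (Jun and Maff), and for one whose genotypes overlapped (Fos), because these genes are known to be controlled through short sites close to their start. RefSeq promoters (GRCm38.p6) run from 250 bases before to 50 bases after the annotated start, 300 bases in all, and were found for 8 of the 10 genes, in 10 windows (3 of them for Maff, of which the pair with matches is shown). Fosl1 and Egr1 had no entry. Capitals mark every match, on either strand, to the letters that follow. These are TGANTCA (the AP-1 site with any middle base), TGACGTCA (the cyclic AMP response element) and the CArG box bound by serum response factor. TGACATCA (a site through which Jun and Atf2 act on the Jun promoter) is marked too. So are CCACCC and CCGCCC (boxes of the kind that Kruppel-like and Sp factors bind).
Fosl2, chr5:32136222-32136521, plus strand: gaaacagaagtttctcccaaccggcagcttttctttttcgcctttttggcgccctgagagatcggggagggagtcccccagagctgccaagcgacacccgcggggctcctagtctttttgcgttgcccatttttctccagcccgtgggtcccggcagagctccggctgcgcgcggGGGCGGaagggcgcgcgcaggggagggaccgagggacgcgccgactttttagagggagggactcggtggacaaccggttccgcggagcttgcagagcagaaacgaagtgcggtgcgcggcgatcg
Jun, chr4:95052173-95052472, minus strand: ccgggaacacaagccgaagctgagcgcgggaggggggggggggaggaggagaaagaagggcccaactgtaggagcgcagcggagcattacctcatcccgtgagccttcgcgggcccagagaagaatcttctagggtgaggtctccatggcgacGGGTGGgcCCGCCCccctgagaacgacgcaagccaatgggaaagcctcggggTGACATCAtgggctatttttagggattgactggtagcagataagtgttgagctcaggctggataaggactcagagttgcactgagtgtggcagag
Maff, upstream start, chr15:79347270-79347569, plus strand: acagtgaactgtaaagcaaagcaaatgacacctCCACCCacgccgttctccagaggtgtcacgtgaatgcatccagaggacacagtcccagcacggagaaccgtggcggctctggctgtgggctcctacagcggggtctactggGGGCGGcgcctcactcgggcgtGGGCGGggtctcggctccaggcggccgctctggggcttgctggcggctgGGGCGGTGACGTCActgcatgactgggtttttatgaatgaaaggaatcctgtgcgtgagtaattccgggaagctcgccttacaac
Maff, downstream start, chr15:79348152-79348451, plus strand: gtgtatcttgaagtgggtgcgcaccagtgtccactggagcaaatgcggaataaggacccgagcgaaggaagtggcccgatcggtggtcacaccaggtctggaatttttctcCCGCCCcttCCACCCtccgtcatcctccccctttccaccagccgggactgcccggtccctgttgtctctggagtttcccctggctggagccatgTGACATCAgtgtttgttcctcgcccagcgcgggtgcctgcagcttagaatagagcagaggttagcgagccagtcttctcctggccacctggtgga
Fos, chr12:85473640-85473939, plus strand: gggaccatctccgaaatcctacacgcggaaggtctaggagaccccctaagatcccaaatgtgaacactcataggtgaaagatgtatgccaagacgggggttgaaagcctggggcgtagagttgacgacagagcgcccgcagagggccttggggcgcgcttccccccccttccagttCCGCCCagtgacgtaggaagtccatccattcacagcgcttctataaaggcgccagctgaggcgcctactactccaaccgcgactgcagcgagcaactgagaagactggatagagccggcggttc

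The Jun promoter held TGACATCA at -45 to -38 from the start, and the downstream Maff promoter held the same letters at the same distance. The upstream Maff promoter held TGACGTCA at -29 to -22, next to a CCGCCC box at -35 to -30. Over all 32851 promoter windows in the table, TGACATCA occurred in 3.62% and TGACGTCA in 1.79%. The pattern TGANTCA, which is wider than the AP-1 site, was in 0 of the 10 windows of these genes, against 7.81% of all windows. The CArG box was in 0 of 10, against 1.63%. CCGCCC was in 7 of the 10 windows, against 35.7% of all, and CCACCC in 5 of 10, against 31.5%. In the sequences above, Fos and Fosl2 each held a single CCGCCC box and no other match. Sites more than 250 bases before a start lay outside the windows, and Fosl1 and Egr1 had no window, so the 0 counts do not cover them. A match is a run of letters and not a measured binding site.

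The values below are quantile-normalized intensities, and fold changes are KO minus WT on the log2(intensity + 16) scale, with the standard error (SE) from limma's moderated linear model (n = 2 arrays per genotype). A call is an adjusted p under 0.05 (limma, Benjamini-Hochberg over 27022 probe sets). Of the 14 probe sets, 13 had a mean above the filter intensity of 13.05 and were tested, and the single Fosb probe set was not. The targeted gene separated the arrays as labelled on its brightest probe set, which read 34.8 and 49.9 in KO clones 1 and 2, against 2398 and 1782 in WT clones 1 and 2. Of its other probe sets, 1 read 82.6 and 61.0 in KO clones, against 102.3 and 88.6 in WT clones, and did not pass (log2 fold change -0.35, adjusted p = 0.36, limma), and the other was below the filter and overlapped. The sources used here do not say which part of Klf5 each covers. The deposited arrays differed in level, with trimmed means of 137 and 150 in the KO clones, against 226 and 139 in the WT clones, so WT clone 1 was the brightest before normalization. After normalization, the arrays correlated at 0.984 between KO clones, at 0.986 between WT clones and at 0.961 to 0.973 across genotypes. The beta-actin control read higher at its 3′ than at its 5′ end by 0.75 and 0.52 (log2, a measure of RNA quality) in KO clones, against 0.48 and 0.44 in WT clones, while the same difference for Gapdh was -0.33 and -0.29 in KO clones, against -0.32 in each WT clone.

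Fosl1 and Fosl2 rose in the KO clones on 1 probe set each, Jun read higher on both of its probe sets without passing the test, and the genotypes overlapped for Fos, Junb and Fosb. Of the 13 tested probe sets, 2 rose, 0 fell and 11 did not pass. Over all tested probe sets 3.69% passed, 2.44% higher and 1.25% lower. At least a 2-fold difference on the log2(intensity + 16) scale in all 4 pairings of a KO with a WT clone was met by 0 of the 13, against 1.37% of all. At an unadjusted p under 0.05 there were 5 (Fosl1, Fosl2, both for Jun, and Maff), against 20.4% of all probe sets. Both KO clones lay above both WT clones for 8 of the 13 and below for 0 of the 13, where 23.9% of all probe sets lay above and 28.4% below. The median log2 fold change of the 13 was 0.33, beside -0.022 for all tested probe sets. The 13 are not 13 independent measurements, since Fosl1, Fosl2, Jun and Jund have 2 probe sets each.

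**Figure D1:**
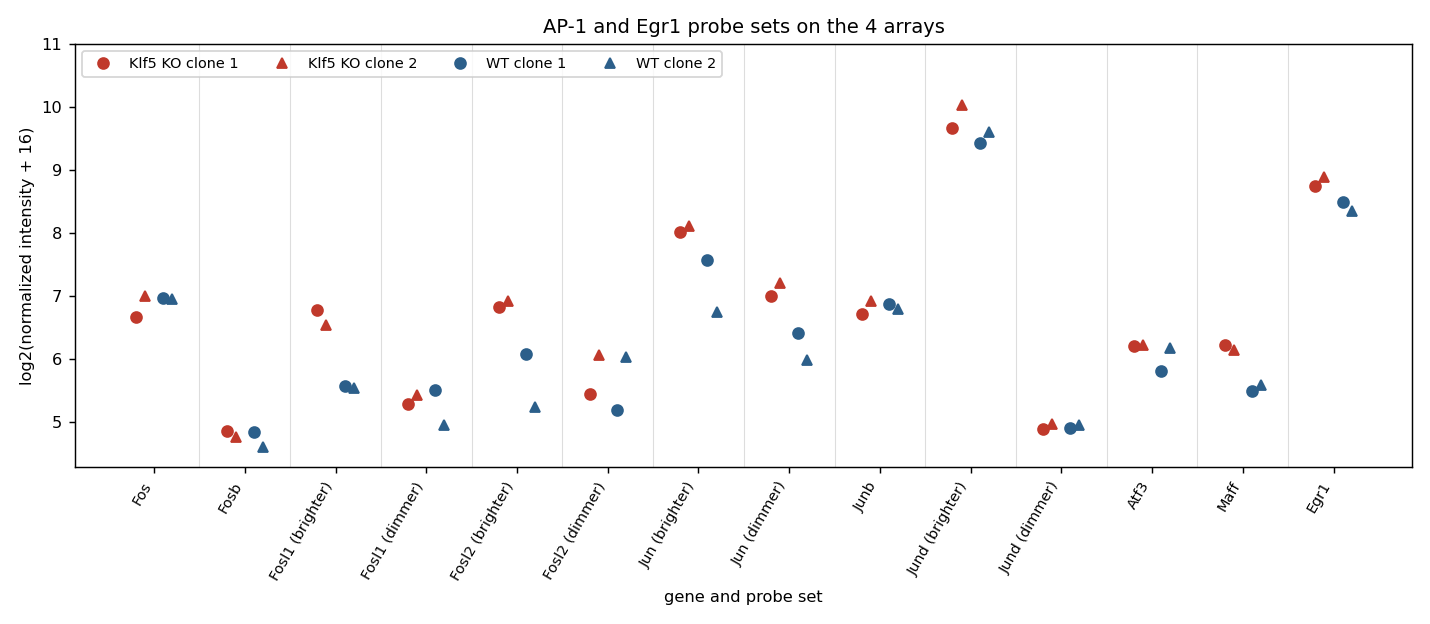
Log2(normalized intensity + 16) on the vertical axis for each of the 14 probe sets of the 10 genes, with 1 point per array (red, Klf5 KO clones; blue, WT clones; circles, clone 1; triangles, clone 2). The KO clones stand clear of the WT clones for the brighter Fosl1 and Fosl2 probe sets, both Jun probe sets and Maff, and are mixed with them for Fos, Fosb and Junb. Heights of different probe sets are not comparable as amounts of RNA.

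Fosl1 encodes Fra-1, a Fos protein without the transactivation domain of Fos that is typical of mesenchymal and invasive cells. Its brighter probe set (1417487_at) read 94.5 and 77.9 in KO clones 1 and 2, against 32.0 and 31.0 in WT clones 1 and 2. The WT clones were nearly equal, and the lower KO clone was more than 2-fold above both on the intensity scale. The log2 fold change was 1.10 ± 0.18 (SE; 2.14-fold, adjusted p = 0.015, limma). The dimmer one (1417488_at) read 23.1 and 27.4 in KO clones, against 29.7 and 15.2 in WT clones, so the groups overlapped. Its log2 fold change was 0.13 ± 0.22, with a 95% confidence interval of -0.38 to 0.63. The annotation gives the same source sequence for both probe sets, and the sources used here do not say which part of the transcript each covers.

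Fosl2 encodes Fra-2, the close relative of Fra-1 and a regulator of matrix genes. The brighter probe set (1437247_at) read 98.3 and 105.5 in KO clones, against 51.5 and 21.9 in WT clones. The KO clones were alike and lay above both WT clones, which differed from each other by more than 2-fold in intensity. The log2 fold change was 1.22 ± 0.27 (2.33-fold, adjusted p = 0.042, limma), and it was 0.81 (adjusted p = 0.16) without WT clone 2, the dimmer of the WT pair. The dimmer Fosl2 probe set (1422931_at) read 27.5 and 51.3 in KO clones, against 20.9 and 49.7 in WT clones. There the clones numbered 2 were the higher ones in both genotypes, the groups overlapped, and the log2 fold change was 0.14 (95% confidence interval -0.55 to 0.83). Neither call was kept throughout when single arrays were left out, which leaves 1 clone in a genotype. Fosl1 lost its call with any one array left out, while its log2 fold change stayed between 1.01 and 1.23. Fosl2 lost its call without KO clone 1 (log2 fold change 1.30), KO clone 2 (1.19) or WT clone 2 (0.81). Neither passed without the filter on dim probe sets (adjusted p = 0.082 for Fosl1 and 0.18 for Fosl2) or with a pseudocount of 1 in place of 16 (0.072 and 0.18).

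Fos, the founding Fos protein and an immediate-early gene, read 85.8 and 111.9 in KO clones, against 110.2 and 108.1 in WT clones. KO clone 1 was the lowest array and KO clone 2 the highest. The log2 fold change was -0.13 ± 0.19 (95% confidence interval -0.57 to 0.30). Fosb, its relative best known from neurons, read 13.03 and 11.4 in KO clones, against 12.9 and 8.35 in WT clones, all below the filter intensity. In the fit without a filter its log2 fold change was 0.09 (95% confidence interval -0.33 to 0.50). On this scale the interval of Fos excludes a 2-fold change in either direction, while Fosb was too dim for its value to be read that way. Whether the change in Fosl1 and Fosl2 differs from that in Fos was not tested.

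Jun, the central partner of the Fos proteins, had the same log2 fold change on both of its probe sets, 0.91, and neither passed. The dimmer one (1448694_at) read 112.9 and 131.7 in KO clones, against 69.5 and 47.4 in WT clones (SE 0.21, 1.87-fold, adjusted p = 0.051, limma). The brighter one (1417409_at) read 244 and 261 in KO clones, against 174 and 91.8 in WT clones (SE 0.26, 1.88-fold, adjusted p = 0.10). On both, the KO clones were above both WT clones, and WT clone 2 was the lowest array. Without WT clone 1 both probe sets passed, at 1.07 and 1.27 (adjusted p = 0.047 and 0.019), and without WT clone 2 they had 0.69 and 0.50 (adjusted p = 0.24 and 0.40).

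Junb, which often opposes Jun in growth control, read 89.6 and 105.0 in KO clones, against 101.5 and 95.2 in WT clones. The arrays were interleaved, with a log2 fold change of -0.016 ± 0.18 (95% confidence interval -0.43 to 0.40). Jund, the constitutively expressed Jun protein, read 795 and 1032 in KO clones, against 674 and 763 in WT clones on its brighter probe set (1449117_at). KO clone 1 was only just above WT clone 2, and the log2 fold change of 0.33 ± 0.20 did not pass (adjusted p = 0.39). The dimmer Jund probe set (1440265_at) read 13.6 to 15.4 on all 4 arrays, just above the filter intensity, and had -0.008. Of the 3 Jun genes, only Jun had both KO clones above both WT clones on all of its probe sets.

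Maff, a small Maf protein without a transactivation domain that is induced by stress and cytokines, read 58.9 and 54.6 in KO clones, against 29.1 and 32.4 in WT clones. The groups were well separated and the clones within each were close, with a log2 fold change of 0.64 ± 0.18 (1.56-fold) that did not pass (adjusted p = 0.091, limma). Egr1, the zinc finger factor that reports ERK signalling, read 416 and 461 in KO clones, against 344 and 310 in WT clones. All 4 pairings of a KO with a WT clone had the same sign, but the log2 fold change of 0.41 ± 0.18 did not pass (adjusted p = 0.25). Atf3, a stress-induced factor that binds with Jun, read 58.1 and 58.9 in KO clones, against 40.2 and 56.7 in WT clones. WT clone 2 was almost level with the KO clones, and the log2 fold change was 0.22 (95% confidence interval -0.23 to 0.67).

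**Figure D2:**
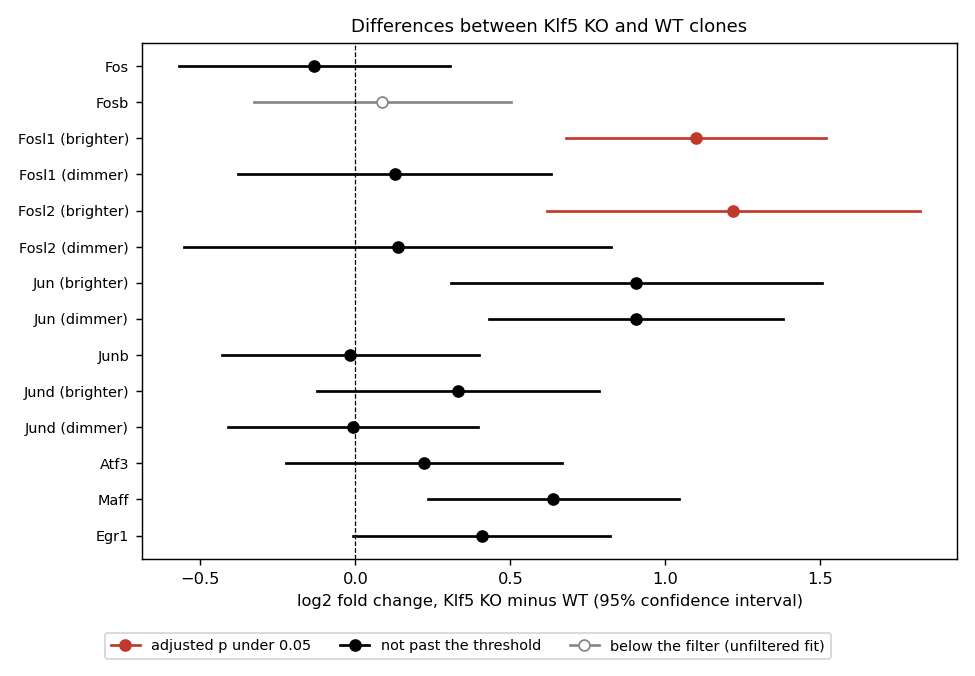
Log2 fold change (Klf5 KO minus WT) of each probe set on the horizontal axis, with its 95% confidence interval, not adjusted for multiple testing, from limma's fit (n = 2 arrays per genotype). Red points passed the adjusted threshold, at 1.10 (Fosl1) and 1.22 (Fosl2), black points did not, and the open grey point is Fosb, below the filter. Both Jun intervals lie above 0, while that of Fos runs from -0.57 to 0.30.

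The scale of the arrays bears on these values. In the intensities as deposited, 5 of the 13 tested probe sets still had both KO clones above both WT clones (the brighter ones of Fosl1 and Fosl2, the dimmer one of Jun, Atf3 and Maff), against 8.38% of all probe sets, and 0 had both below, against 28.2%. On that scale neither call held: Fosl1 had 0.96 (adjusted p = 0.26, limma) and Fosl2 1.02 (adjusted p = 0.21). The brighter Jun and Jund probe sets and Egr1 overlapped on that scale, where WT clone 1 was bright throughout. For Egr1 the deposited intensities were 339 and 424 in KO clones, against 490 and 259 in WT clones. The median of all tested probe sets was -0.19 as deposited and -0.16 after centring the arrays on their medians, and Egr1 had log2 fold changes of 0.08 and 0.12 on those scales.

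**Figure D3:**
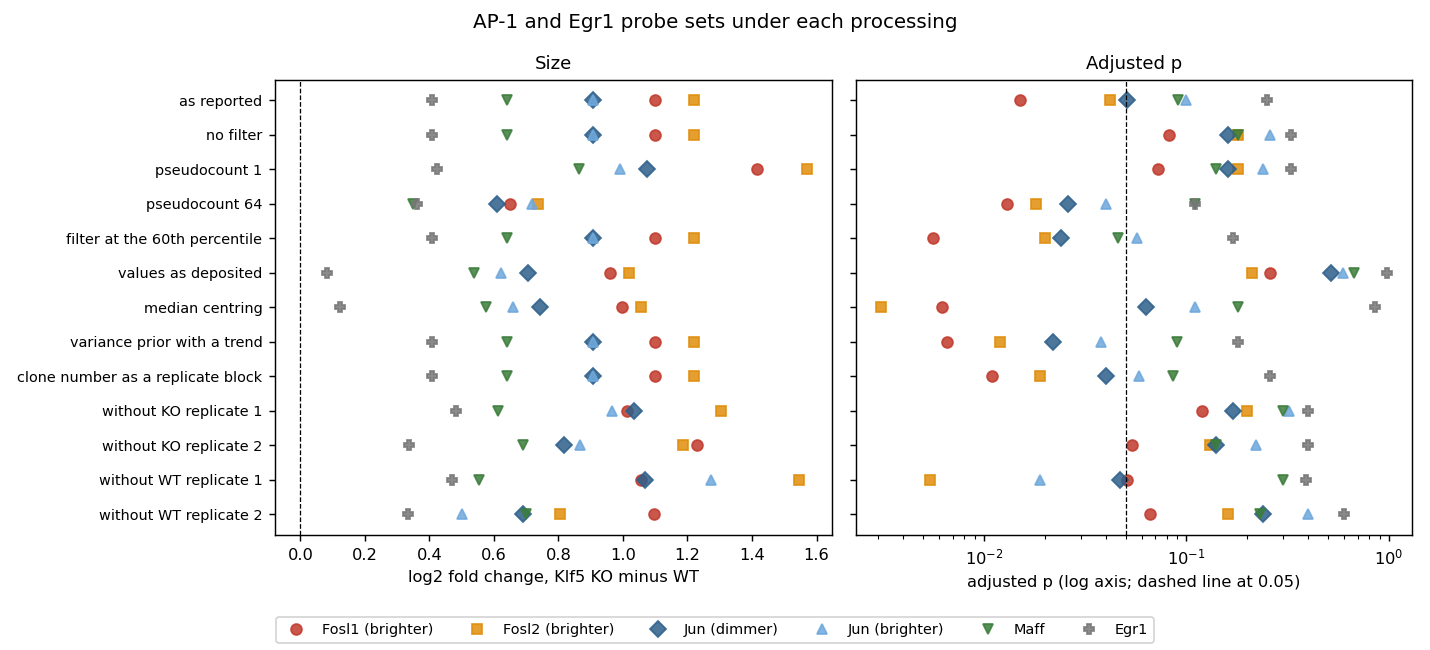
Log2 fold change (left, Klf5 KO minus WT) and adjusted p (right, log axis, dashed line at 0.05) of 6 probe sets under the processing reported and each of 12 alternatives, 1 row each. All the log2 fold changes of these 6 stay above 0, and Fosl1 runs from 0.65 to 1.42 and Fosl2 from 0.74 to 1.57. The adjusted p crosses 0.05 for the Fosl1, Fosl2, Jun and Maff probe sets shown and stays above it for Egr1.

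Of the other leucine zipper factors on a list of 32 (Atf, Batf, Creb, Cebp, Maf, Bach and Nfe2 genes among them), 25 were tested, and 0 rose, 0 fell and 25 did not pass by limma. Over all 13023 genes tested, 2.94% rose and 1.34% fell. The list's median log2 fold change was 0.06, beside -0.024 for all genes. The largest differences were for Bach2, a repressor that pairs with small Maf proteins, and Cebpb, a factor of adipocyte and inflammatory genes. Bach2 read 9.49 and 18.2 in KO clones, against 38.7 and 22.1 in WT clones (-0.63 on the log2 scale, adjusted p = 0.18), and its other 2 probe sets had -0.47 and -0.07 and did not pass. Cebpb read 167 and 195 in KO clones, against 118 and 110 in WT clones (0.60, adjusted p = 0.12), and its other probe set had 0.06.

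Of the immediate-early genes outside AP-1, 28 were tested: 3 rose, 0 fell and 25 did not pass, where 2.94% of all genes rose and 1.34% fell, and the list's median was 0.16. Both KO clones were above both WT clones for 13 and below for 7, where 25.9% and 29.7% of all genes were. Ccn1 (Cyr61), a matricellular protein induced by serum, read 561.5 and 553 in KO clones, against 173 and 151 in WT clones (log2 fold change 1.69 ± 0.18, adjusted p = 0.0016, limma), and its other 3 probe sets rose as well, by 1.495 to 1.56. Ccn2 (Ctgf), its relative and a target of TGF-beta, read 2165 and 2228 in KO clones, against 1009 and 639 in WT clones (1.43 ± 0.23, adjusted p = 0.014). Ier5, a growth factor and stress response gene, read 228 and 183 in KO clones, against 86.7 and 77.8 in WT clones (1.17 ± 0.19, adjusted p = 0.014), but its other 2 probe sets had 0.13 and 0.54 and did not pass. Ccn1 kept its call with each array left out. Ccn2 lost it without KO clone 1, KO clone 2 or WT clone 2 (adjusted p = 0.12, 0.080 and 0.058), and Ier5 without KO clone 1 or WT clone 2 (0.12 and 0.068).

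A list of kinases and ternary complex factors that act upstream of Fos and Jun also held other regulators (Nras, Mrtfa, Mrtfb, Fbxw7, Cop1 and Itch). Of its genes, 27 were tested on 1 probe set each: 0 rose, 0 fell and 27 did not pass by limma. Over all genes, 2.94% rose and 1.34% fell, so few calls would be expected among 27 genes. The list's median was -0.17, beside -0.024 for all genes. Both KO clones were above both WT clones for 5 and below for 13, where 25.9% and 29.7% of all genes were. Rps6ka3, the ERK-activated kinase RSK2, read 67.6 and 103 in KO clones, against 162 and 175.5 in WT clones (-0.89 on the log2 scale, adjusted p = 0.059). Another of its probe sets passed at -0.94 and a further one had -0.06. Elk3, a ternary complex factor, read 242 and 197 in KO clones, against 164 and 117 in WT clones (0.60, adjusted p = 0.16), and its other probe sets had -0.17 and 0.10. A further 8 genes of this list had no row under a single symbol and were not analysed here.

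Of the genes reported as AP-1 targets in other systems, 31 were tested: 13 rose, 2 fell and 16 did not pass, where 2.94% of all genes rose and 1.34% fell, and the list's median was 0.86. Both KO clones were above both WT clones for 21 and below for 4, where 25.9% and 29.7% of all genes were. A further 4 genes of the list had no row under a single symbol and were not analysed here. The list was drawn up when large rises of several of its genes in these arrays were already known, so its count is not independent evidence of a direction. S100a4, a calcium-binding protein of motile cells, read 2960 and 1925 in KO clones, against 31.4 and 32.7 in WT clones (log2 fold change 5.64 ± 0.23, adjusted p = 3.3e-05, limma). Tnc (tenascin-C, a matrix protein) read 1058 and 1175 in KO clones, against 64.9 and 45.0 in WT clones, Cd44 (a hyaluronan receptor) 1471 and 1723 in KO clones, against 95.8 and 74.2 in WT clones, and Ptgs2 (cyclooxygenase 2) 876 and 780 in KO clones, against 73.2 and 32.6 in WT clones. Their adjusted p-values were 5.7e-05, 5.4e-05 and 0.00026. The other 9 that rose, listed after their values were seen, were Serpinb2, Ccl2, Timp1, Dcn, Hmga2, Il6 and the matrix metalloproteinase genes Mmp2, Mmp3 and Mmp10. Their log2 fold changes ran from 1.24 (Mmp2) to 3.67 (Serpinb2). Serpinb2, Dcn, Il6, Mmp3 and Mmp10 read below the filter intensity of 13.05 in both WT clones. They were tested only because their KO values raised the mean, so their rises are not independent of the filter. Of the 34 list genes with a row, 3 read below that intensity in each KO clone, against 7 and 10 in WT clones 1 and 2.

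The targets that fell were the metallothionein genes, whose products bind zinc and copper. Mt1 read 968 and 1240 in KO clones, against 2906 and 2849 in WT clones (log2 fold change -1.38 ± 0.19, adjusted p = 0.0069, limma), on a probe set with the suffix _s_at, whose probes may also match related transcripts. Its other probe set had -0.12. Mt2 read 2022 and 2256 in KO clones, against 3753 and 3787 in WT clones (-0.81 ± 0.18, adjusted p = 0.044). Mt1 lost its call without KO clone 1 (adjusted p = 0.085), and Mt2 with any one array left out (0.095 to 0.23).

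**Figure D4:**
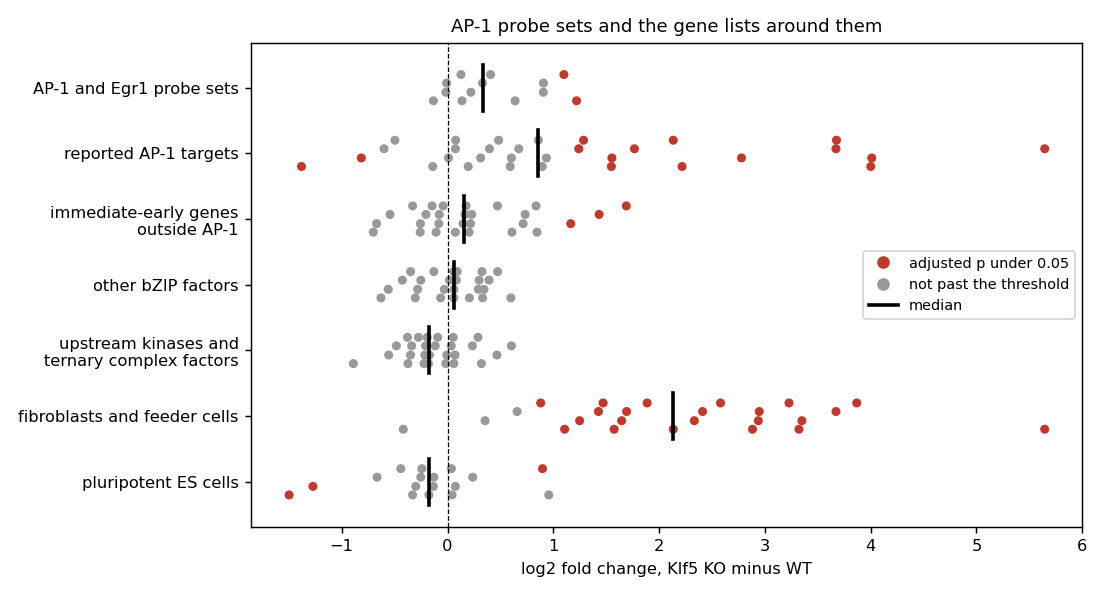
Log2 fold change (Klf5 KO minus WT, horizontal axis) of the 13 tested probe sets of AP-1 genes and Egr1 (top row) and, below, of each tested gene of 6 lists, 1 point per probe set or gene, with a bar at the median (red, adjusted p under 0.05). The medians are 0.33 for the AP-1 probe sets, 0.86 for the reported AP-1 targets and 2.13 for fibroblast markers.

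Markers of fibroblasts and feeder cells mostly rose in the KO clones. Of 25 tested, 22 rose, 0 fell and 3 did not pass, with a median of 2.13. Over all genes tested, 2.94% rose, 1.34% fell and the median was -0.024, and these shares apply to each marker list below. Col1a2, Bgn and Serpinf1 were 14.6-fold, 12.7-fold and 10.2-fold higher in KO clones, after S100a4. The summed intensity of all 27 markers was 16030 and 15400 in KO clones, against 3696 and 2737 in WT clones. No marker read 0. Of the 27, 2 read below the filter intensity in each KO clone and 6 in each WT clone, and Lum and Fap were below it on average over the 4 arrays. In a bulk sample, more cells of a type and more RNA per cell cannot be told apart, and the part that fibroblast-type expression had in the values of Fosl1, Fosl2, Jun or the target list was not tested. The target list shares Dcn and S100a4 with the markers. Without them, 11 of 29 targets rose and the median was 0.67. Of 17 pluripotency markers, 1 rose (Lefty1), 2 fell (Tcl1 and Nr0b1) and 14 did not pass. Both KO clones were above both WT clones for 3 and below for 9, where 25.9% and 29.7% of all genes were. The summed intensity of the 17 was 42110 and 44110 in KO clones, against 45570 in each WT clone, and the brightest genes weigh most in that sum. Of 9 primitive endoderm and 7 trophectoderm markers tested, 0 rose and 1 of each fell (Lama1 and Krt18). These 5 genes are named after their values were seen.

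The genes whose pattern over the 4 arrays lay nearest to the called probe sets were found by the Euclidean distance between mean-centred log2 values. Nearest to Fosl1 were Fgfbp1, a carrier of fibroblast growth factors (distance 0.068), Selenop, a selenium transport protein (0.070), and the deubiquitinase gene Usp26 (0.087). Nearest to Fosl2 were Cflar, an inhibitor of death receptor signalling (0.11), Col4a5, a basement membrane collagen (0.15), and Cd248, a surface protein of stromal cells (0.19). With 4 arrays in 2 groups these distances describe the shape of the values only.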

How the data were processed

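Expression was measured in 4 mouse ES cell clones, 2 Klf5 KO and 2 WT, on 1 Affymetrix array each. Each deposited column gives an intensity per probe set on a linear scale (45101 rows, 64 of them controls). The sources used here do not give the summary algorithm, background correction or scaling, and the labels name only the array maker's manual and, for the gene search, GeneSpring. Depth does not apply to arrays, and the number of arrays limits the precision.

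Arrays were quantile normalized and log2(intensity + 16) was taken. This log2 scale was computed from the deposited intensities and understates changes of dim genes. Probe sets with a mean below the 40th percentile and controls were removed, leaving 27022. KO was compared with WT with limma 3.58.1 in R 4.3.3 (lmFit, eBayes, 2 residual and 6.87 prior degrees of freedom, two-sided, Benjamini-Hochberg), tested on simulated data. An exact permutation test of 2 against 2 arrays cannot go below p = 0.333, so none was run. Genes in lists were represented by their brightest kept probe set, and by one ending in _x_at only as a last choice (13023 genes in all). Symbols are those of the platform annotation (34945 rows with 1 symbol, 932 with several, 9160 with none), and rows with several or none are not named.

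The members and lists were chosen with earlier results of these data known. Named were Klf5, every member, the 4 largest rises and falls past the threshold in each list and in the fibroblast markers (the 2 largest differences where fewer than 2 passed), and the 3 nearest genes of each called member. Alternatives were the pseudocount, filter, normalization, variance prior, the clone number as a block, leaving out single arrays, a 2-fold rule, averaging a gene's probe sets, and, added after seeing the data, the target list without fibroblast markers. Clones of different genotypes share only a number.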

Additional observations from a re-analysis of the deposited data

How the results depend on the processing

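The count of called AP-1 probe sets was 2 as reported (Fosl1 and Fosl2), 2 after median centring and 3 with clone number as a replicate block, which added a Jun probe set (the dimmer one, adjusted p = 0.040). It was 0 at a pseudocount of 1, 0 without the filter, 0 in the values as deposited and 0 by the rule of 2-fold in all 4 pairings. It reached 4 at a pseudocount of 64 and 4 with a trend in the variance prior (both Jun probe sets added), and 4 with the filter at the 60th percentile (the dimmer Jun probe set and Maff added). With single arrays left out it ran from 0 to 3, and the 3 came without WT clone 1 (Fosl2 and both for Jun). With an array left out, the lone clone of its genotype was assumed to vary like the others. The correlation of same-numbered clones' deviations from their genotype's mean was 0.055, and with 2 pairs it does not establish a pairing.

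Directions turned for 6 probe sets, of which none was called: Fos had 0.031 without KO clone 1 (range over the arrays left out -0.30 to 0.031), and Junb 0.084 without KO clone 1 and 0.023 without WT clone 1 (-0.12 to 0.084). The dimmer Fosl1 probe set had -0.15 without WT clone 2 (-0.15 to 0.38), and the dimmer Fosl2 one -0.18 without KO clone 2 and -0.26 without WT clone 1 (-0.26 to 0.57). The dimmer Jund probe set had 0.008 after median centring, 0.034 without KO clone 1 and 0.019 without WT clone 2 (-0.05 to 0.034), and the brighter one -0.009 as deposited.

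Over all probe sets, 659 rose and 337 fell as reported (996 called), against 640 and 1418 after median centring (2058), where the median of all probe sets was -0.16. The total was 189 with a pseudocount of 1, 2060 with 64, 190 without the filter, 332 as deposited, 1955 with a variance trend, and 203 to 653 with an array left out. As deposited and after median centring, the variance prior had infinite degrees of freedom, so every probe set shared a single variance.

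Of the lists, immediate-early genes had 3 calls as reported, 1 with a pseudocount of 1, without the filter or as deposited, 5 with the 60th percentile filter, median centring, a variance trend or the mean of probe sets, 6 with a pseudocount of 64, and 1 to 3 with an array left out. Other leucine zipper factors had 0 calls, but 1 with a pseudocount of 64 and 1 after median centring. The list of upstream kinases and other regulators had 0, but 1 with a pseudocount of 64, the 60th percentile filter, median centring, a variance trend or the replicate block. The reported targets had 15 calls, 9 without the filter, 10 with a pseudocount of 1, 12 as deposited, 17 after median centring or with the replicate block, 21 with a pseudocount of 64 or a variance trend, and 9 to 15 with an array left out.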
